A study of Mus musculus with 20 samples.

Results

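The entry into the cell cycle from G1 was examined through 10 genes in mouse mammary tumours: the D-type cyclins Ccnd1, Ccnd2 and Ccnd3, their kinases Cdk4 and Cdk6, the kinase inhibitors Cdkn1b, Cdkn1c and Cdkn2c, and the pocket protein genes Rb1 and Rbl1. The genes were listed by name. Each was represented by the transcript with the highest total over the 20 libraries, out of 38947 genes that could be named in the deposited table. All 10 passed a filter on low values (at least 10 normalised counts in at least 5 libraries), as did 19844 of the named genes. A normalised count is a read count divided by a scale factor of its library.

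The tumours grew from SSM3 cells, an oestrogen receptor-positive line that was established from a mouse mammary tumour. Hosts were 129S6/SvEv mice, 2 to 4 months old, that received the cells in a mammary gland and were treated once tumours reached about 150 mm3. The 4 groups held 5 tumours each. In the vehicle group, sham surgery was followed by 25 days of 5% ethanol injections. Anti-PD-1 mice had the same surgery and vehicle plus, on days 3, 5 and 7, 250 µg of anti-PD-1, which blocks an inhibitory receptor of T cells. Letrozole mice were ovariectomised and given the aromatase inhibitor letrozole at 1 mg/kg each day, and the letrozole + anti-PD-1 group received both. The effects of ovariectomy and of the drug cannot be told apart in this design, and "letrozole" below means the 2 together. Tumours within a group are biological replicates according to the design text. All groups share 1 tumour line, so the genotype of the tumour cells is that of a single line.

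D cyclins are made in response to growth signals and bind the kinases Cdk4 and Cdk6. The active kinases phosphorylate the retinoblastoma protein and its relatives p107 and p130, which then release E2F transcription factors and allow the genes of DNA synthesis to be transcribed. INK4 inhibitors such as p18 (Cdkn2c) block Cdk4 and Cdk6, whereas the Cip/Kip inhibitors p27 (Cdkn1b) and p57 (Cdkn1c) act mainly on the later Cdk2 complexes. In luminal mammary cells cyclin D1 is a classical link between oestrogen signalling and the cell cycle, and Cdk4/6 inhibitors are given with aromatase inhibitors in oestrogen receptor-positive breast cancer.

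Between 12456356 and 31301954 reads per library fell on the transcripts that stand for genes, and a log2 difference between 2 groups had a standard error of 0.24 at the median gene. The treatment label was met by the progesterone receptor gene Pgr, an oestrogen receptor target, at 7763 to 18215 normalised counts in the 10 tumours without letrozole and 733 to 1725 in the 10 with it. The 10 luminal epithelial markers were detected in every tumour, with list means between 13.95 and 14.44 on the log2(value + 1) scale. On the first principal component vehicle replicate 3 lay apart from the other vehicle tumours (75.1, against −104 to −18.0), within the range of the letrozole group. Anti-PD-1 replicate 1 lay apart from all others on the second. Anti-PD-1 replicate 1 had the fewest reads and 12.9% of them in its 10 most abundant genes. These are called below the libraries that stood apart.

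Per length of transcript the 10 genes spanned more than 2 orders of magnitude on a scale of normalised counts per kb. Cdk4 was the most abundant, at a median level of 2472 per kb over the 20 tumours, and it lay above the next gene in 20 of 20. Ccnd1 (751), Cdkn2c (703), Ccnd3 (679) and Cdkn1b (676) followed at levels that their spread did not separate: Ccnd1 lay above Cdkn2c in 9 tumours, Cdkn2c above Ccnd3 in 11 and Ccnd3 above Cdkn1b in 9. Rbl1 stood below these at 394, and Cdkn1b exceeded it in 20 of 20. Ccnd2 (98.4), Rb1 (42.0) and Cdk6 (30.7) were lower still, with Ccnd2 above Rb1 in 18 tumours and Rb1 above Cdk6 in 16. Cdkn1c was lowest at 7.55 per kb, below Cdk6 in all 20. These levels per length use the length of the whole transcript, and counting was by transcripts that share reads. The order and the ratios per kb given below therefore depend on the transcript taken. A protein-coding Cdkn1b transcript of 1757 bases held 47094 normalised counts in total, beside 62501 on the 4552 bases of the one used. For Cdk6 a transcript of 2470 bases held 3155, beside 7275 on 11525 bases. Both shorter transcripts thus had higher levels per kb.

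**Figure D1:**
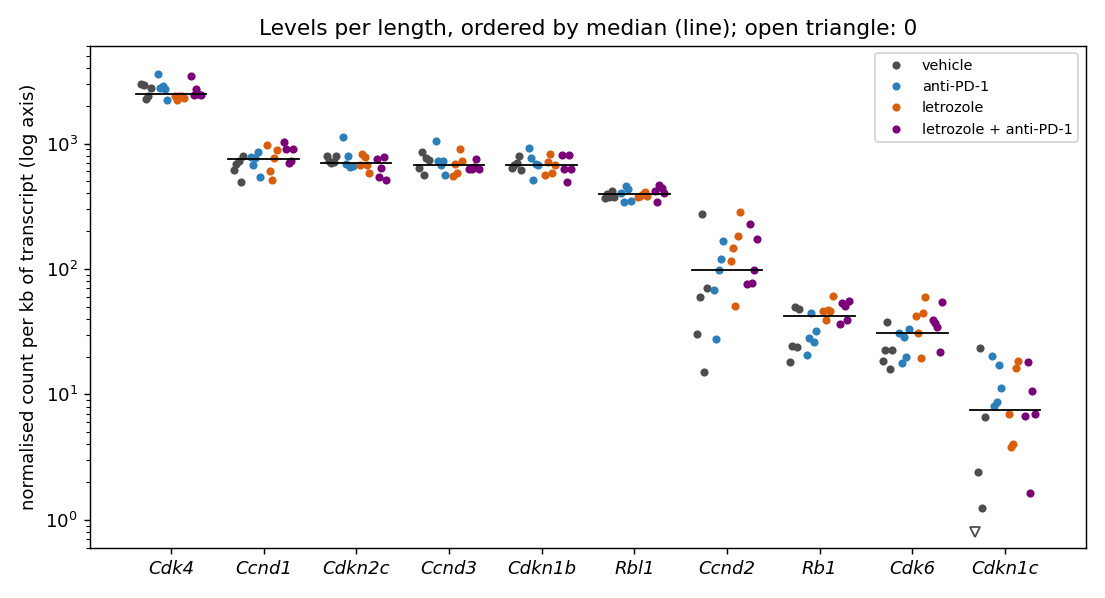
Normalised count per kb of transcript (log axis) of the 10 genes in order of their median (line), with 1 point for each of the 20 tumours coloured by group; an open triangle is a value of 0. Cdk4 lies above every other gene, 4 genes lie together between medians of 676 and 751 per kb, and Ccnd2 and Cdkn1c spread most.

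The spread between tumours was wider for the low genes. Rbl1 varied least, with a coefficient of variation of 9.11% over the 20 tumours, followed by Cdk4 (14.4%), Cdkn1b (16.1%), Ccnd3 (17.7%), Cdkn2c (18.2%) and Ccnd1 (19.9%). Values were 31.9% for Rb1, 39.0% for Cdk6, 66.6% for Ccnd2 and 73.0% for Cdkn1c. Ccnd2 differed 18.6-fold between its lowest and highest tumour and Rbl1 1.37-fold.

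Letrozole was tested in the absence of antibody, in its presence and averaged over both, with limma and p-values adjusted over all 19844 genes at a threshold of 0.05. Averaged over both antibody arms, 1 of the 10 genes was called, Rb1, which was higher, against 7.00% of all tested genes called in either direction (3.29% higher and 3.71% lower). Another 2 members, Cdk6 and Ccnd2, had unadjusted p-values below 0.05, a level that 22.9% of all genes reached. The median log2 difference of the 10 genes was 0.12, beside 0.03 for all tested genes. By edgeR 0 of the 10 were called, beside 6.53% of all genes, and by DESeq2 2 (Cdk6 and Rb1), beside 10.2%. In bulk tumours fewer cells of a type and less RNA per cell cannot be told apart.

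In the smaller comparisons limma called none of the 10 genes. For letrozole against vehicle the members' count was 0 where 0.957% of all genes were called, and 3 had an unadjusted p below 0.05 (Ccnd2, Cdk6 and Rb1; 13.8% of all genes). For letrozole + anti-PD-1 against anti-PD-1 it was 0 beside 1.07%, and 1 unadjusted (Rb1; 13.4% of all genes). For letrozole + anti-PD-1 against vehicle it was 0 beside 1.18%, and 3 unadjusted (Ccnd1, Cdk6 and Rb1; 13.1% of all genes). EdgeR also called 0 of the 10 in each of these 3 comparisons, beside 0.837%, 0.952% and 1.09% of all genes in turn. DESeq2 called 0 as well, beside 3.13%, 2.69% and 3.40%. The last shares its tumours with the first and with the second.

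The antibody comparisons gave no call. Anti-PD-1 against vehicle had 0 of 10 members and 0% of all genes called, and 1 member (Cdkn1c) at an unadjusted p below 0.05, a level reached by 2.72% of all genes. Letrozole + anti-PD-1 against letrozole also gave 0 of 10 and 0% of all genes, with 0 members unadjusted beside 3.16% of all genes. The interaction, which asks whether the letrozole difference depends on the antibody, gave 0 of 10 and 0%, with 0 members unadjusted beside 1.98%. In these comparisons edgeR called 0 of the 10 and 0% of all genes, and DESeq2 0 of the 10 beside 0.0252%, 0.0454% and 0.0202% of all genes in turn.

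**Figure D2:**
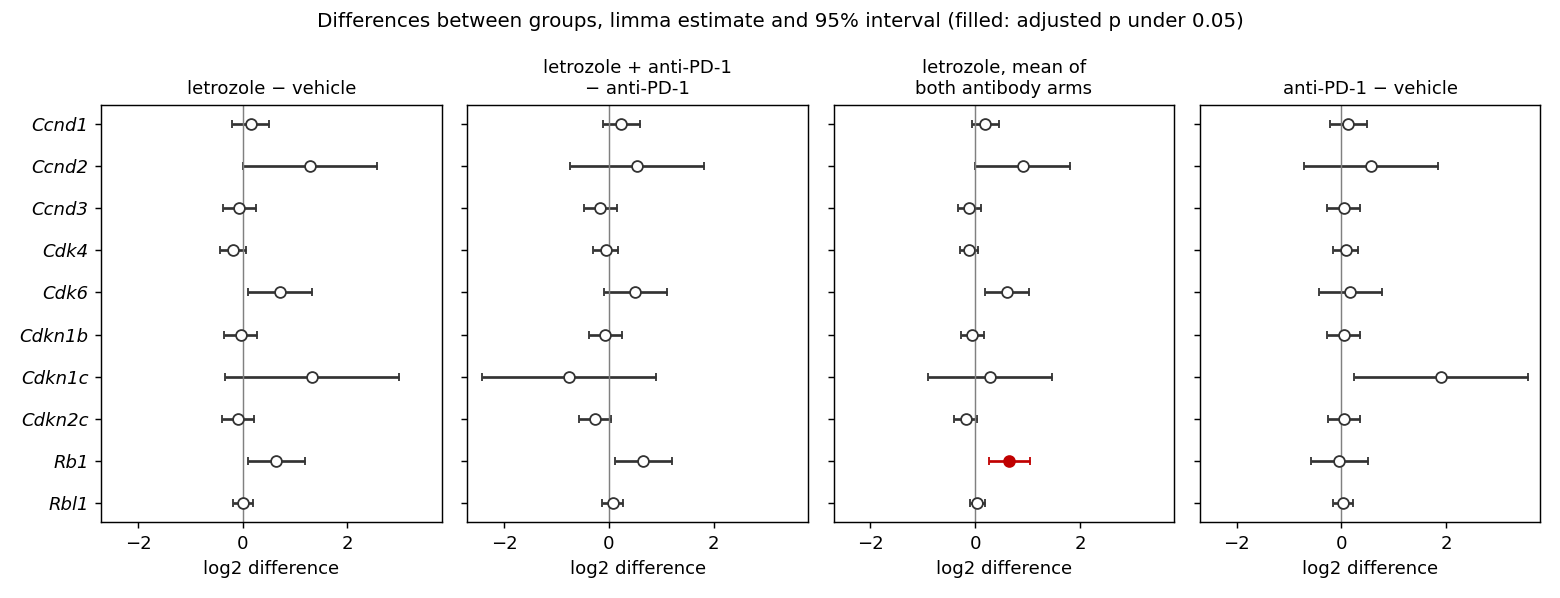
Log2 difference (limma estimate, log2(value + 1) scale) with its 95% interval for the 10 genes in 4 comparisons; a filled red point has an adjusted p under 0.05. Only Rb1 in the averaged letrozole comparison is filled, and the intervals of Ccnd2 and Cdkn1c are several times wider than those of Rbl1 and Cdk4.

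Among the D cyclins, Ccnd1 encodes cyclin D1, the main D cyclin of mammary epithelium. In vehicle tumours 1 to 5 it stood at 2303, 2553, 2715, 1845 and 2979 normalised counts, and in anti-PD-1 tumours at 2916, 2518, 2885, 3212 and 2017. In letrozole tumours it stood at 3616, 2269.9, 1918, 2886 and 3294, and in letrozole + anti-PD-1 tumours at 3823, 3373, 2609.7, 2733 and 3382. The groups overlapped, although 5 of the 10 letrozole-treated tumours lay above the highest of the other 10. The averaged letrozole difference in Ccnd1 was a log2 of 0.19 (SE 0.12, 95% interval −0.06 to 0.45, limma adjusted p = 0.351). That interval excludes a Ccnd1 level lower by more than 0.06 on this scale, while Pgr fell by 3.49. The largest Ccnd1 difference was that of letrozole + anti-PD-1 against vehicle, at 3184 ± 504 and 2479 ± 431 (mean ± SD, n = 5 each; log2 0.36, SE 0.17, limma adjusted p = 0.363).

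Ccnd2 encodes cyclin D2, a D cyclin found in many stromal and blood cell types. Its level in vehicle tumours was 190.5, 378, 1731, 96.4 and 443, and in anti-PD-1 tumours 430.0, 174, 619.9, 760.4 and 1050.0. With letrozole it was 736, 927, 323, 1163 and 1791, and with both agents 479, 1456, 492, 626 and 1099. Vehicle replicate 3 alone lay near the top of all 20 tumours, and the other 4 vehicle tumours lay in the lower part of the range. Over both arms 909 ± 470.4 with letrozole compared with 587 ± 496 without (SD, n = 10 each), a log2 difference of 0.91 (SE 0.43, 95% interval 0.00 to 1.81, limma adjusted p = 0.217). Without vehicle replicate 3 the difference was 1.20 (SE 0.37, adjusted p = 0.0413) and passed the threshold. Leaving out anti-PD-1 replicate 1 as well gave 1.16 (adjusted p = 0.0569). Ccnd2 thus passed only with vehicle replicate 3 left out and anti-PD-1 replicate 1 kept, of the settings run.

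Ccnd3, which encodes cyclin D3, ranged from 1138 to 1847 normalised counts with letrozole and from 1153 to 2148 without. Its averaged difference was −0.11 (SE 0.11, 95% interval −0.34 to 0.11), and −0.05 (SE 0.10) without anti-PD-1 replicate 1. Per length Ccnd1 and Ccnd3 were near each other, with Ccnd1 above Ccnd3 in 10 of 20 tumours. Of the summed D cyclin level per kb, Ccnd1 made up a median of 47.0%, Ccnd3 45.8% and Ccnd2 6.30%. The Ccnd2 share ran from 1.19% to 17.5% between tumours, both ends in the vehicle group. In the letrozole + anti-PD-1 group Ccnd1 exceeded Ccnd3 in 4 of 5 tumours, and in each other group in 2 of 5, a difference in counts that was not tested.

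**Figure D3:**
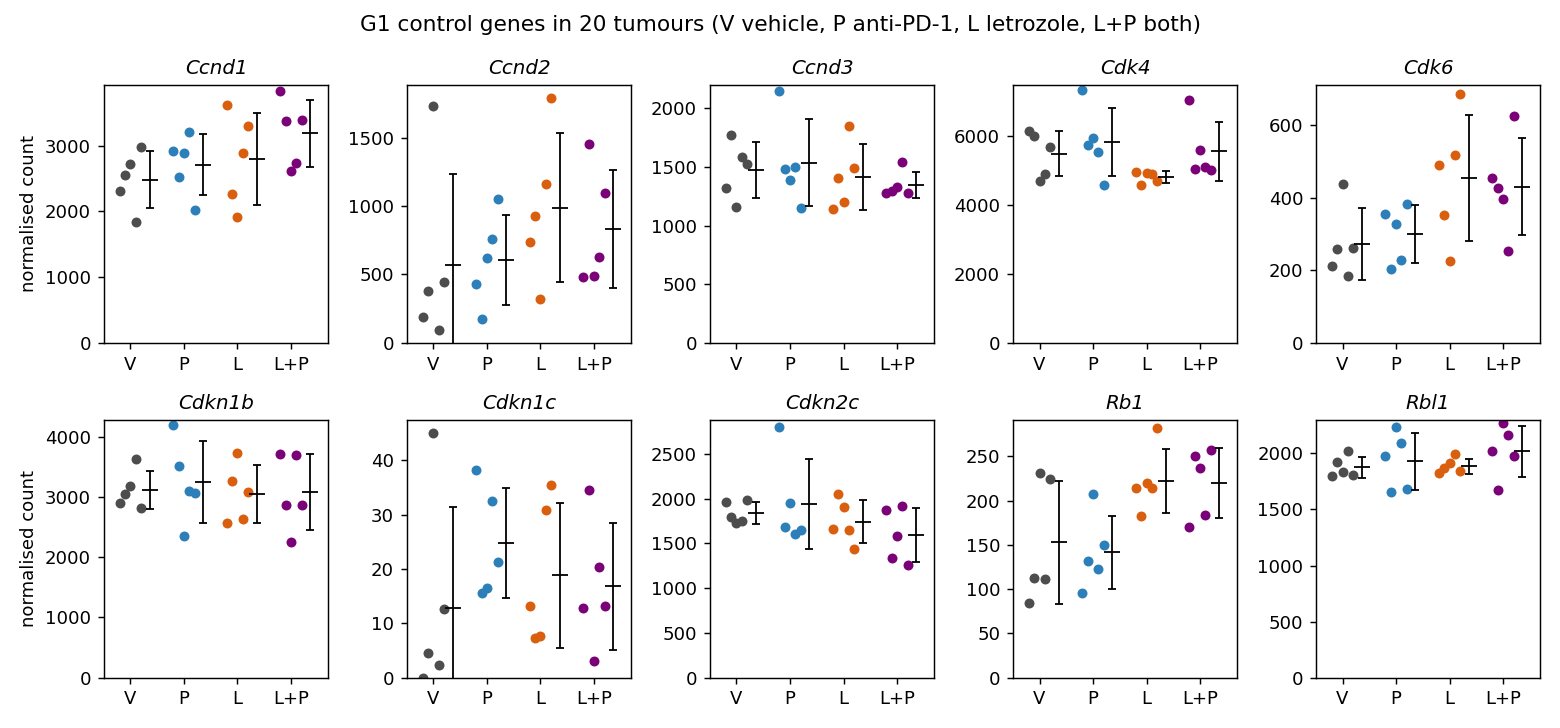
Normalised counts (linear axes from 0) of the 10 genes in the 5 tumours of each group (points, in replicate order), with the group mean and SD (bar) at the right of the points; a lower bar that passes 0 is drawn to the axis. Rb1 in the letrozole groups lies between 170.4 and 281, while single tumours set the top of Ccnd2, Cdkn1c, Cdk4 and Cdkn2c in some groups.

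Of the kinases, Cdk6 showed the larger difference. It stood at 212, 259, 438, 183 and 262 in vehicle tumours and at 356, 205, 329, 228 and 383 in anti-PD-1 tumours. In letrozole tumours it stood at 488, 353, 226, 517 and 684, and with both agents at 453, 425, 396, 253 and 625. Of the letrozole-treated tumours 5 of 10 exceeded every tumour without letrozole, while letrozole replicate 3 and letrozole + anti-PD-1 replicate 4 lay below the median of the 10 without letrozole. The mean was 442 ± 146 with letrozole and 285 ± 85.9 without (SD, n = 10 each), and the fitted difference was 1.52-fold (log2 0.61, SE 0.20, 95% interval 0.18 to 1.04, limma adjusted p = 0.0773). Cdk6 was not called. DESeq2 called it (adjusted p = 0.0217), and so did limma without vehicle replicate 3 (0.0257), without letrozole replicate 3 (0.0311), without letrozole + anti-PD-1 replicate 4 (0.0436) or without both libraries that stood apart (0.0242). Without anti-PD-1 replicate 1 its adjusted p was 0.0715.

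Cdk4, the partner kinase that dominated in these tumours, ranged from 4577 to 7038 with letrozole and from 4584 to 7349 without. Its averaged difference was −0.12 (SE 0.08, 95% interval −0.29 to 0.05, limma adjusted p = 0.389), and −0.08 (SE 0.07) without anti-PD-1 replicate 1. The 5 letrozole tumours lay closest together, at 4814 ± 163 (SD), and 7038 in letrozole + anti-PD-1 replicate 1 was the highest value with letrozole. Cdk4 exceeded Cdk6 per kb in every tumour, by a median of 94.3-fold for the transcripts used. That ratio had a median of 130 in the vehicle group (60.1 to 163) and 116 with anti-PD-1 (67.2 to 157), and of 57.0 with letrozole (38.7 to 123) and 79.4 with both (45.1 to 114).

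Cdkn1b and Cdkn2c, the abundant inhibitor genes, differed little between groups. Cdkn1b (p27) was 3116 ± 321 in vehicle, 3246 ± 676 in anti-PD-1, 3055 ± 479.6 in letrozole and 3084 ± 625 in letrozole + anti-PD-1 tumours (mean ± SD, n = 5 each). Its averaged letrozole difference was −0.05 (SE 0.11, 95% interval −0.28 to 0.17), and −0.01 (SE 0.10) without anti-PD-1 replicate 1. Cdkn2c (p18) was 1843 ± 123, 1939 ± 503, 1743 ± 243 and 1595 ± 300.2 in the same order of groups. The averaged difference in Cdkn2c was −0.18 (SE 0.10, 95% interval −0.40 to 0.04, limma adjusted p = 0.319), and −0.11 (SE 0.09) without anti-PD-1 replicate 1. The highest Cdkn2c value, 2806, came from anti-PD-1 replicate 1, a library that stood apart. That library also held the highest value of Cdk4 (7349), Ccnd3 (2148) and Cdkn1b (4187), but not of Ccnd1 or Rbl1. Its normalised counts summed to 2.64e+07, against 2.10e+07 to 2.31e+07 in the other libraries.

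Cdkn1c encodes p57, an imprinted inhibitor. It was close to the detection limit, with 0 to 48 reads in the vehicle group. Vehicle tumours held 0, 4.54, 44.9, 2.38 and 12.6 normalised counts, and anti-PD-1 tumours 38.1, 15.5, 16.6, 32.6 and 21.2. Letrozole tumours held 13.2, 7.22, 7.66, 30.8 and 35.4, and tumours with both agents 12.8, 34.6, 3.09, 20.4 and 13.2. Vehicle replicate 3 was the highest of all 20, and the other 4 vehicle tumours lay below every anti-PD-1 tumour. The difference of anti-PD-1 against vehicle was 1.90 (SE 0.80, 95% interval 0.24 to 3.56, limma adjusted p = 1.00) and was not called. Without vehicle replicate 3 it was 2.60 (SE 0.73), with an adjusted p of 0.959, and without anti-PD-1 replicate 1 it was 1.73 (SE 0.86). On the log2(value + 1) scale a gene this low is shrunken towards 0.

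The pocket proteins are the targets of the D cyclin kinases. Rb1, which encodes the retinoblastoma protein, stood at 84.3, 112, 231, 112 and 224 normalised counts in vehicle tumours and at 95.3, 132, 207, 123 and 149.7 in anti-PD-1 tumours. Letrozole tumours had 214, 182, 220.3, 214 and 281, and letrozole + anti-PD-1 tumours 170.4, 250.1, 237, 184 and 258. All 10 letrozole-treated tumours lay above the median of the other 10, and 7 of those 10 lay below the lowest letrozole-treated tumour. The groups overlapped through vehicle replicates 3 and 5 and anti-PD-1 replicate 3.

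The Rb1 mean was 221 ± 35.9 with letrozole and 147 ± 54.2 without (SD, n = 10 each), and the fitted difference was 1.57-fold (log2 0.65, SE 0.19, 95% interval 0.27 to 1.04, limma adjusted p = 0.0377). Letrozole against vehicle gave 0.64 (SE 0.26, adjusted p = 0.269) and letrozole + anti-PD-1 against anti-PD-1 0.66 (SE 0.26, adjusted p = 0.263). The interaction was 0.02, with an interval from −0.76 to 0.79 that holds effects as large as the difference itself. The averaged call was close to the threshold. It was lost by edgeR (adjusted p = 0.0627), without the filter on low values (0.0631), and when any 1 of 13 libraries was left out, with adjusted p-values from 0.0521 to 0.0747. Those were vehicle replicates 1, 2 and 4, anti-PD-1 replicates 1, 2 and 4, letrozole replicates 1, 3, 4 and 5, and letrozole + anti-PD-1 replicates 2, 3 and 5. DESeq2 kept it (adjusted p = 0.026), and without both libraries that stood apart it was 0.0154. The log2 difference stayed between 0.56 and 0.74 over the 32 alternatives.

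The deposited table lists 3 short Rb1 transcripts that sample different parts of the gene, and coding bases of each are shown because the listed levels of the 3 differed. They are read 5′ to 3′ from the full-length Rb1 transcript ENSMUST00000022701 of 27 exons (GENCODE vM21 on GRCm38, minus strand, while the authors' build was GRCm39). The exon bases lie within chr14:73280171-73282978, chr14:73262529-73264321 and chr14:73197214-73202855. The first short transcript overlaps exons 1, 7 and 8, of which exons 7 and 8 are printed with exon 7 in capitals. In exons 16 and 17 the capitals mark exon 17, and in exons 24 to 27 they mark exon 25. The print stops where the short transcripts end, at the 3′ side of exon 8 and the 5′ side of exon 16. Those exons may therefore be shown only in part.
Rb1 exons 7 and 8: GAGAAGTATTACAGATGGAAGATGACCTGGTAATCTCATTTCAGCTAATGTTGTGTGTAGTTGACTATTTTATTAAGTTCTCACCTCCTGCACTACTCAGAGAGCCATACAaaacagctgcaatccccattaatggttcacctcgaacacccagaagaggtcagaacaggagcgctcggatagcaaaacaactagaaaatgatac
Rb1 exons 16 and 17: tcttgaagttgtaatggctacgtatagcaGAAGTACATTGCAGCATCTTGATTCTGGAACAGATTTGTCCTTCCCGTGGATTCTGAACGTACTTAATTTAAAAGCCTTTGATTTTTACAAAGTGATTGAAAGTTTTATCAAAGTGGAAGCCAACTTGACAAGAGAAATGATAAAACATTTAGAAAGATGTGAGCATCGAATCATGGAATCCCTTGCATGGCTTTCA
Rb1 exons 24 to 27: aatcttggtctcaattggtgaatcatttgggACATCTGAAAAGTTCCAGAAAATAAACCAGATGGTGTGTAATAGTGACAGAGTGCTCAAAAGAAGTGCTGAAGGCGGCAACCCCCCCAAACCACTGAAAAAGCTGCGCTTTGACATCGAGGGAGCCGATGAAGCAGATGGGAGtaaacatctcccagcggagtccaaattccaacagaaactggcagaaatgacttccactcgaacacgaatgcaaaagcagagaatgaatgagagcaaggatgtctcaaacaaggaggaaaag

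Per kb of short transcript the listed levels were higher for the 5′ than for the 3′ transcripts. The transcript of exons 1, 7 and 8 (324 bases) had a median of 180.4 normalised counts per kb over the 20 tumours, that of exons 16 and 17 (355 bases) 98.6, and that of exons 24 to 27 (946 bases) 13.8. The full-length transcript stood at 42.0. Exons 1, 7 and 8 lay above exons 24 to 27 in 20 of 20 tumours, exons 16 and 17 above exons 24 to 27 in 20 of 20, and exons 1, 7 and 8 above exons 16 and 17 in 18 of 20. Only 226 of the 355 and 535 of the 946 bases are exonic in the full-length transcript, and a read that touches the edge of a short transcript raises its level per kb. The sources used here do not say how reads were assigned to overlapping transcripts, and the part of such reads in this gradient was not tested.

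The mean level of each of these short Rb1 transcripts was higher with letrozole. That of exons 1, 7 and 8 had means of 69.8 normalised counts with letrozole and 48.4 without. Means were 44.8 and 30.3 for that of exons 16 and 17, and 16.7 and 8.10 for that of exons 24 to 27. These short transcripts were not tested. Over the 20 tumours the transcript of exons 24 to 27 followed the means of 10 macrophage markers (r = 0.68) and of 10 fibroblast markers (r = 0.73). That of exons 16 and 17 followed neither (0.06 and 0.05), while that of exons 1, 7 and 8 lay between (0.57 and 0.39). The transcript of exons 24 to 27 was close to the detection limit, at 0 to 43.9 normalised counts with a median of 13.0. The other 2 Rb1 transcripts of the table share 93.2% and 100% of their bases with the opposite-strand genes Rcbtb2 and Lpar6 and were left out here.

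**Figure D4:**
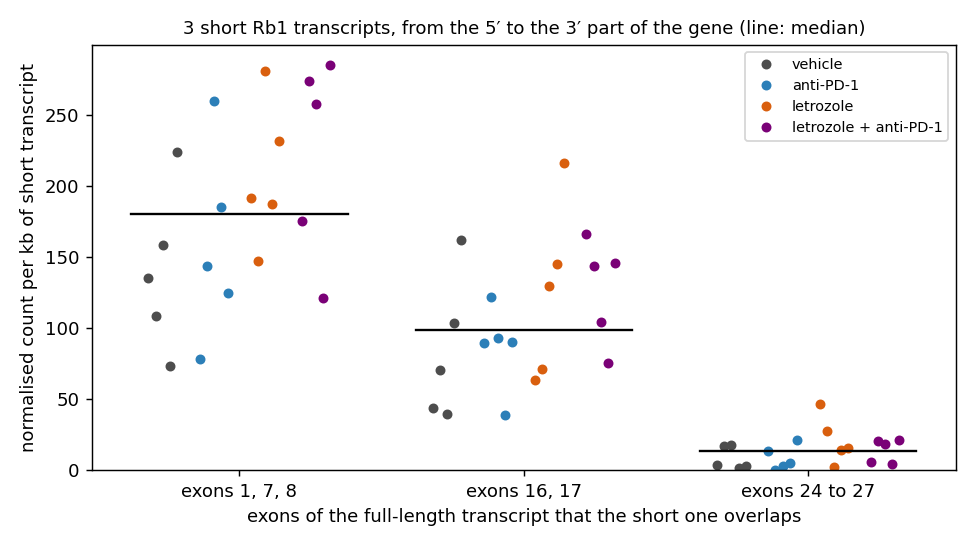
Normalised count per kb of 3 short Rb1 transcripts, from the 5′ to the 3′ part of the gene, in the 20 tumours (points, coloured by group) with the median (line). The median falls from 180.4 to 98.6 and 13.8 per kb, and the transcript of exons 24 to 27 lies below both others in every tumour.

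Rbl1 encodes p107 and was the steadiest of the 10 genes. It ranged from 1799.6 to 2019.8 in vehicle, from 1654 to 2235 in anti-PD-1, from 1823 to 1992 in letrozole and from 1673 to 2270.1 in letrozole + anti-PD-1 tumours. Its averaged letrozole difference was 0.04 (SE 0.07, 95% interval −0.10 to 0.18), an interval that holds no change beyond 1.13-fold. Per kb Rbl1 exceeded Rb1 in every tumour, by a median of 10.1-fold (6.27 to 20.5). The third pocket protein gene, Rbl2 (p130), also exceeded Rb1 in all 20, by a median of 5.77-fold.

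RefSeq's promoter table (GRCm38.p6) holds 8 windows for 6 of the genes, Rbl1, Cdkn2c, Cdk6, Cdkn1b, Cdk4 and Ccnd3. The 250 bases before each start site were searched on both strands for the E2F-type letters TTTCCCGC, TTTCGCGC, TTTGCCGC and TTTGGCGC. A match was found in 1 of the 8 windows, that of Rbl1, and in 1.86% of all 32851 windows of the same length. The Rbl1 window, a promoter that E2F factors are known to bind, is shown as the one with a match. The match, in capitals, ends 10 bases before the start site, in chr2:157204535-157204784 on the minus strand.
Rbl1 promoter: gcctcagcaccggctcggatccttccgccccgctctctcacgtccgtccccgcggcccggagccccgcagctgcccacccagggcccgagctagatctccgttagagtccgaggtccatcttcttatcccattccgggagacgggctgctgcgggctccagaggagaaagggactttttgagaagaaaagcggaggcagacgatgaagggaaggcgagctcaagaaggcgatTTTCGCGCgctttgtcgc

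Of 57 other genes of the pathway, 56 could be analysed and all of these passed the filter. Averaged over both arms letrozole changed 13 of the 56 (23.2%, beside 7.00% of all genes), of which 12 were lower and 1 was higher. EdgeR called 13 (6.53% of all genes) and DESeq2 16 (10.2% of all genes). Their median log2 difference was −0.18, beside 0.03 for all genes and 0.12 for the 10 G1 genes. When single libraries were left out, the limma call count ran from 9 (without vehicle replicate 1) to 17 (without vehicle replicate 3). Those fits called 950 of 19751 and 2336 of 19680 genes.

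Of the 18 E2F target genes of S phase, 6 were called lower and none higher, with a median of −0.27. Over all genes 3.71% were called lower and 3.29% higher. Cdt1, which licenses replication origins, fell from 1623 ± 151 to 1138 ± 172 (SD, n = 10 each; log2 −0.52, SE 0.08, limma adjusted p = 7.15e-04). Orc1, a subunit of the origin recognition complex, fell by 0.62 (SE 0.15, adjusted p = 0.0185). The helicase subunit genes Mcm3 (−0.27, adjusted p = 0.0374) and Mcm5 (−0.42, 0.00947), the ribonucleotide reductase gene Rrm1 (−0.26, 0.00973) and the checkpoint kinase gene Chek1 (−0.41, 0.013) also fell. The Mcm3 call was close to the threshold.

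Of the 11 genes of the E2F, DP and p130 list, 3 were called, beside 7.00% of all genes, and all 3 fell. E2f4, a repressive E2F that binds p107 and p130, fell from 1929.9 ± 264 to 1438 ± 128 (log2 −0.42, SE 0.07, limma adjusted p = 0.00177). E2f5 fell by 0.43 (adjusted p = 0.0259) and Tfdp1, the E2F partner DP1, by 0.33 (adjusted p = 0.00318). The activator gene E2f1 differed by −0.10 and was not called. In the MuvB and B-Myb list 1 of 5 tested genes was called, Mybl2 (B-Myb), which fell by 0.55 (adjusted p = 0.0283), and that call was lost without the filter and without vehicle replicate 1, vehicle replicate 5 or letrozole replicate 3, at adjusted p-values up to 0.058.

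Of the genes of cyclin E, cyclin A and Cdk2, 1 of 5 was called, beside 7.00% of all genes. This was cyclin E1 (Ccne1), which fell by 0.35 (limma adjusted p = 0.0452, close to the threshold). Cdkn2b (p15) was the 1 of 4 other inhibitor genes that was called. Its mean was 289 ± 152 without and 485 ± 77.9 with letrozole (SD, n = 10 each), with a fitted log2 difference of 0.88 (SE 0.22, adjusted p = 0.0195), and all 32 alternatives kept the call. Cdkn2a differed by 0.36 (adjusted p = 0.221) and Cdkn1a (p21) by 0.19 (adjusted p = 0.537). Transcripts of Cdkn2a serve both p16 and p19Arf, and the level does not separate the 2 products. Limma, edgeR and DESeq2 called 0 of 3 Cdk-activating kinase genes, beside 7.00%, 6.53% and 10.2% of all genes. None had an unadjusted limma p below 0.05, a level that 22.9% of all genes reached. Of 8 genes for the turnover of D cyclins, cyclin E and p27, limma and edgeR called 0 and DESeq2 1, with 2 unadjusted by limma. The topoisomerase gene Top2a, made in dividing cells, fell by 0.54 (adjusted p = 0.0145), and Mki67 differed by −0.47 (adjusted p = 0.0879).

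In the single arms fewer pathway genes were called. Letrozole + anti-PD-1 against anti-PD-1 called 2 of 56 (3.57%, beside 1.07% of all genes). These were Cdt1 (log2 −0.65, SE 0.12, limma adjusted p = 0.00898) and E2f4 (−0.53, SE 0.10, adjusted p = 0.0142). The count was 1 without anti-PD-1 replicate 4 and 3 without anti-PD-1 replicate 1. Those fits called 72 of 19718 and 196 of 19719 genes. Letrozole + anti-PD-1 against vehicle called 1 (1.18% of all genes), Cdt1 (−0.57, adjusted p = 0.0169), and 0 without vehicle replicate 1 or 2 or letrozole + anti-PD-1 replicate 1, 3 or 5. Letrozole against vehicle called 0 by limma and edgeR, with 21 of 56 at an unadjusted p below 0.05 (13.8% of all genes), and 8 by DESeq2 (3.13% of all genes). Leaving out vehicle replicate 3 raised the limma counts against vehicle to 7 for letrozole and 7 for letrozole + anti-PD-1. The counts over all genes rose as well, from 190 and 234 to 814 and 694 of 19680.

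Levels of the variable members followed markers of several cell types, stromal cells among them. These are given as descriptions over tumours that share libraries and scaling. Ccnd2 correlated with the mean of 10 macrophage markers at r = 0.96 over the 20 tumours and with that of 10 fibroblast markers at r = 0.96, and within groups at 0.96 for both lists. Cdk6 correlated with them at 0.78 and 0.75, Cdkn1c at 0.61 and 0.71, and Rb1 at 0.76 and 0.60. Within groups the macrophage values were 0.71 for Cdk6, 0.68 for Cdkn1c and 0.68 for Rb1. Rbl1 (−0.06 and −0.17) and Ccnd1 (0.47 and 0.48) followed less closely. Cdk4 (−0.50 and −0.35), Cdkn2c (−0.47 and −0.29), Ccnd3 (−0.41 and −0.17) and Cdkn1b (−0.37 and −0.26) went the other way.

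**Figure D5:**
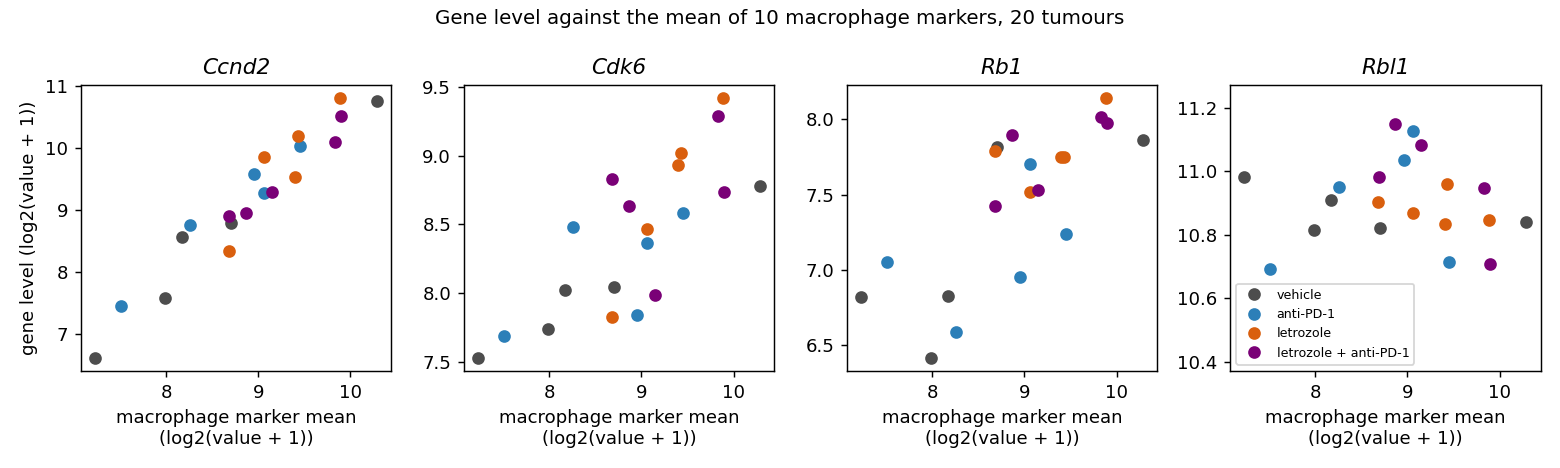
Log2(value + 1) of Ccnd2, Cdk6, Rb1 and Rbl1 against the mean log2(value + 1) of 10 macrophage markers in the 20 tumours, coloured by group. Ccnd2 follows the marker mean (r = 0.96), Cdk6 (0.78) and Rb1 (0.76) do so more loosely, and Rbl1 does not (−0.06).

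Most marker lists had higher estimates with letrozole. Summed macrophage markers ran from 1891 to 18650 normalised counts in vehicle, 2679 to 9986 in anti-PD-1, 6707 to 13507 in letrozole and 5736 to 13326 in letrozole + anti-PD-1 tumours, and none of the 10 was at 0 in any library. All 10 had higher estimates in the averaged comparison and 0 were called. Summed fibroblast markers ran from 2568 to 67420, 6044 to 42786, 9451 to 76911 and 12326 to 46423 in the same order, with Lum at 0 in at least 1 library, 9 of 10 higher and 0 called. Summed B cell markers ran from 1.80 to 39.4 over all groups, and each of the 4 was at 0 in at least 1 library. Endothelial markers (10 of 10), basal markers (8 of 8), skeletal muscle markers (10 of 10 tested), T cell markers (7 of 8 tested) and adipocyte markers (6 of 8) also had mostly higher estimates, with 0 called in each list. Summed over 10 endothelial markers, none at 0, levels ran from 1709 to 7717, 3084 to 5769.5, 3712 to 7044 and 3878 to 5745 in the 4 groups in turn. Summed T cell markers ran from 111 to 336, 159 to 455, 139 to 453 and 142 to 487, with 7 of the 9 at 0 in at least 1 library. Basal sums ran from 241 to 2512, 375 to 2043, 607 to 19361 and 770 to 2686 in the same order. Skeletal muscle sums ran from 54.5 to 155, 83.7 to 335, 72.2 to 5984 and 65.5 to 4650. Of the 8 basal markers 2, and of the 11 muscle markers 8, were at 0 in at least 1 library. Muscle list means were 6.67 to 8.06 in letrozole replicates 1, 4 and 5 and letrozole + anti-PD-1 replicate 2. In the other tumours they were at most 4.15. Of the luminal markers 9 of 10 were higher and 2 were called, beside 7.00% of all genes. These were Epcam (log2 0.52, limma adjusted p = 0.00142) and Gata3 (0.45, 0.0023). Ccnd2 also followed the T cell (r = 0.85) and endothelial (r = 0.82) lists, Cdk6 at 0.71 and 0.61 and Rb1 at 0.64 and 0.48. With the basal and skeletal muscle lists r was 0.70 and 0.50 for Ccnd2, 0.63 and 0.61 for Cdk6 and 0.51 and 0.41 for Rb1. Cdk6 followed the B cell list at 0.61, and Ccnd1 the muscle list at 0.50. The part of these cell types in the differences of Rb1, Cdk6 and Ccnd2 was not tested.

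Genes whose levels were most like those of the members over the 20 tumours differed by member. For Ccnd2 they were the matrix gene Spon1 (r = 0.98), Lgals1 (0.97) and Fstl1 (0.97), and for Rb1 Tgfbr2 (0.88) and Notch1 (0.87). Cdk6 was most like Il17ra (0.86), Soat1 (0.85) and Axl (0.85), and Cdk4 like Thoc3 (0.87), Ube2s (0.87) and Tuba1c (0.87). Ccnd1 was most like Rnf19b (0.85), Ano1 (0.82) and Acap3 (0.77), and Ccnd3 like Hspa5 (0.85), Bysl (0.84) and Nme1 (0.83). Cdkn2c went with Mrpl37 (0.85), Cdkn1b with Grb14 (0.80), Cdkn1c with Crlf2 (0.78) and Rbl1 with Ccnc (0.73). Among the members themselves the closest pair was Ccnd2 and Cdk6 (r = 0.80), followed by Ccnd2 and Cdkn1c (0.69), Ccnd2 and Rb1 (0.67) and Cdk6 and Rb1 (0.66), whereas Rb1 and Rbl1 were unrelated (0.05).

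Part of some transcripts lies opposite another gene, and the sources used here do not say whether counting used strand, so reads of the 2 genes may be mixed. In GENCODE vM21 this holds for 31.2% of the exon bases of Cdk4 (with Tspan31), 31.0% of Cdkn1c, 29.4% of Ccnd1 (with LTO1), 17.4% of Ccnd3 (with Bysl, which is among its most like genes), 5.88% of Ccnd2, 2.26% of Rb1 (with Rcbtb2) and 0.954% of Cdk6. Cdkn1b, Cdkn2c and Rbl1 share none.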

How the data were processed

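RNA of 20 tumours, 5 in each of 4 groups, was sequenced in bulk. The submitters' processing notes name STAR 2.7.10a, DESeq2 (no version given) and the build GRCm39 (mm39). For the counter, annotation release and strand setting the sources used here give nothing. The authors deposited 1 table of 127442 Ensembl transcripts whose values are a signal: reads per transcript, scaled by 1 size factor a library. Undoing the division gave whole reads for 100% of values (tolerance 0.001), with size factors from 0.472 to 1.46. Even numbers made up 57.9% to 69.6% of recovered counts of 1 to 20, for a reason the sources do not state.

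GENCODE vM21 (GRCm38) named 118889 transcripts (93.3%). The 8553 without a name (1.79% to 2.76% of reads) and 49 shared symbols were not used. Each gene was represented by its transcript of highest total. Limma 3.58.1 with a trend was run on log2(value + 1) over the 19844 genes past the filter, in 1 fit of 4 group means (16 residual degrees of freedom), two-sided, with Benjamini-Hochberg adjustment per comparison. Fold changes on this scale understate those of low genes. Intervals are at 95%. Alternatives were offsets of 0.5 and 5, no filter or a minimum of 50, quantile normalisation, centring, a replicate block, the compared groups alone, recovered reads in edgeR 4.0.16 and DESeq2 1.42.0, the sum over transcripts, the transcript of highest median, and leaving out single libraries or both that stood apart.

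The members, lists and tests were chosen with earlier results of these data known. The other pathway genes named are a set list, those called and, for likeness, the 3 genes with the highest Pearson correlation to each member, of which some are not reported here.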

Additional observations from a re-analysis of the deposited data

Results flagged for a closer look

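In groups of 5 tumours a value was noted when its gap to the nearest other tumour exceeded 0.71 of the whole range of the group (Dixon's 95% critical value). Of 40 groups examined, 5 had such a value. Chance gives about 1 in 20 only for independent, normally distributed values. These were linear counts of 10 genes in the same tumours, so that rate need not hold. Vehicle replicate 3 had 1731 normalised counts of Ccnd2, against 96.4 to 443 in the other 4 vehicle tumours, and 44.9 of Cdkn1c, against 0 to 12.6. Its macrophage and fibroblast marker means, 10.29 and 11.36 on the log2(value + 1) scale, were also the highest of the vehicle group. Anti-PD-1 replicate 1, the library with the fewest reads, had 2806 of Cdkn2c, against 1602 to 1949. In the letrozole + anti-PD-1 group replicate 1 had 7038 of Cdk4, against 5019.5 to 5599.9, and replicate 4 had 1543 of Ccnd3, against 1281 to 1333. No cause of these values was tested.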

How the results depend on the processing

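In the averaged letrozole comparison 1 of the 10 members was called. That count was 0 without the filter on low values and by edgeR, and 2 by DESeq2 and without both libraries that stood apart. It was 0 to 3 when single libraries were left out. The 3 came without vehicle replicate 3, where 2336 of 19680 genes were called. The member count remained 1 under the other alternatives, the replicate block included (Rb1, adjusted p = 0.0108). The other 6 comparisons called 0 members under every alternative run. Over 70 member results and 2283 alternatives 0 calls changed sign, and 82 uncalled differences did. Only 1 of the 70 was a call in the main fit (Rb1, averaged comparison), so the count of 0 says little about the others. Replicate numbers did not pair the tumours: same-numbered tumours had a median correlation of deviations of 0.01 (30 pairs), and 1 of 20 libraries correlated best with its own number. Counts over all genes moved with single libraries. They ran from 85 to 814 for letrozole against vehicle (190 with all libraries), 72 to 263 for letrozole + anti-PD-1 against anti-PD-1 (213), 936 to 2336 for the average (1389) and 122 to 694 for letrozole + anti-PD-1 against vehicle (234), the highest each time without vehicle replicate 3. The lowest were without vehicle replicate 5, anti-PD-1 replicate 4, letrozole + anti-PD-1 replicate 5 and vehicle replicate 1 in that order. Under the other alternatives the same counts ran from 126 to 1131, 60 to 533, 931 to 2469 and 122 to 956. Centring on library medians moved the averaged calls from 46.9% to 37.9% higher (429 of 1132). Cdkn1c is limited by depth, at 0 to 48 reads in vehicle tumours.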
